A study of Mus musculus with 8 samples.

Results

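The slow-fibre programme of skeletal muscle was followed in mouse gastrocnemius (GAS) through 10 genes that code for slow-type proteins of the sarcomere and of calcium handling: *Myh7*, *Myh7b*, *Myl2*, *Myl3*, *Tnni1*, *Tnnt1*, *Tnnc1*, *Tpm3*, *Atp2a2* and *Casq2*. The genes were chosen by name and function with earlier results of these data known, and each matched exactly 1 of the 22206 probe sets of the array by its gene symbol. After knockdown of the *Mytho* transcript, the mean log2 signal of all 10 genes was higher than in control muscle, by 0.39 to 2.44. For 7 of them the difference reached 2-fold at an unadjusted p under 0.05, against 0.261% of all probe sets. Leaving out 1 array moved this count to between 0 and 9. None of the 10 passed an adjusted p of 0.05, against 0.027% of all probe sets. The difference between the groups was carried mainly by 3 of the 4 animals, except in *Casq2*, which hardly differed between the legs of animal A. In the 4th animal, the MYTHO leg had slow-gene signals near those of the control legs of animals B, C and D.

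Arrays were run on 4 GAS samples of the group AAV sh-RNA scrmb and 4 of the group AAV sh-RNA MYTHO, all from male C57/Bl6j mice labelled as 14 weeks old and sampled 3 weeks after an adeno-associated virus (AAV) had been injected into the muscle. The MYTHO virus expressed a short hairpin RNA against *D230025D16Rik*, the gene that codes for MYTHO, and the scrmb virus a scrambled hairpin. Both groups therefore received a virus and a hairpin, and no uninjected muscle was analysed here. Per the study's methods, the virus was of serotype 1, the hairpin was driven by the U6 promoter, and the control virus went into the opposite leg of the same mouse. U6 is active in most cell types, so the hairpin was not confined to muscle fibres by its promoter. Column names tied the arrays into 4 leg pairs, called animals A to D here, and the labels' replicate numbers could not be matched to them.

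The target gene followed the labels. *D230025D16Rik* had log2 signals (animals A to D, in this order throughout) of 11.35, 11.31, 10.78 and 11.05 with scrmb and of 8.16, 8.20, 8.80 and 8.08 with MYTHO. Its log2 fold change was -2.81 (SE 0.21, n = 4 per group, limma adjusted p = 0.00044), which leaves 14.2% of the control signal. Animal D, in which the median slow-gene difference between the legs was smallest, had a *D230025D16Rik* difference of -2.97, within the range of -3.19 to -1.98 over the 4 animals. Array medians lay between 6.39 and 6.47. The muscle markers *Acta1*, *Ckm*, *Des*, *Ttn* and *Tcap* were high on all 8 arrays, with *Acta1* at the signal ceiling of 19.93 and *Tcap* lowest at 14.06 to 14.63.

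In a muscle fibre, thick filaments of myosin pull on thin filaments of actin, and calcium released from the sarcoplasmic reticulum switches the thin filament on through troponin and tropomyosin. Slow, type I fibres build this machinery from their own isoforms of myosin, troponin and tropomyosin, and they refill the reticulum with a slow isoform of the calcium pump. Mouse GAS is mostly made of fast fibres, and its slow fibres are gathered in its deep part. Per the study's methods RNA came from a weighed sample of GAS, and the part of the muscle that each sample was taken from is not given in the sources used here. Several of these slow isoforms are also used by the heart. *Tpm3* and *Atp2a2* also give rise to isoforms in cells other than muscle, which 1 probe set per gene cannot separate. In bulk tissue, a change in the number of slow fibres and a change in RNA per fibre cannot be told apart.

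The myosin members carry a further piece of the slow programme inside their genes. *Myh7* and *Myh7b* each host an intronic miRNA, miR-208b and miR-499, known as the myomiRs of slow muscle and heart. Their main mature forms are printed here because they sit within members of the set, with the seed (bases 2 to 8) in capitals.
mmu-miR-208b-3p: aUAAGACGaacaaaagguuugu
mmu-miR-499-5p: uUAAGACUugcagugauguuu
On GRCm38.p6, the same assembly as mm10, RefSeq places the first at chr14:54975710-54975731 on the minus strand, within *Myh7*. The second lies at chr2:155622893-155622913 on the plus strand, within *Myh7b*. The first 6 of the 7 seed bases (positions 2 to 7) are shared, and only the last differs. The miRNAs themselves were not analysed here.

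Because the members moved together from array to array, the 250 bases before a listed start of each gene were also read from RefSeq (GRCm38.p6), which had an entry for 9 of the 10 genes, all but *Atp2a2*. For genes with several starts in that table, the most upstream one listed was used. For *Tnni1* this start lies inside the RefSeq gene span, which begins further upstream, and for the other 8 genes it is the end of the span. These windows were searched on both strands for 5 motifs: the MEF2 site, the CArG box, the MCAT motif CATTCC, the muscle E-box CAGCTG and the TATA box TATAAA. No match overlapped another in the 9 members. The upstream windows of *Tnni1*, *Tnnc1* and *Myh7*, which had the largest fold changes, and of *Myl3*, which held the most matches, are shown 5′ to 3′ on the strand of the gene. Capitals mark the motif matches.
*Tnni1* (chr1:135799171-135799420, plus strand): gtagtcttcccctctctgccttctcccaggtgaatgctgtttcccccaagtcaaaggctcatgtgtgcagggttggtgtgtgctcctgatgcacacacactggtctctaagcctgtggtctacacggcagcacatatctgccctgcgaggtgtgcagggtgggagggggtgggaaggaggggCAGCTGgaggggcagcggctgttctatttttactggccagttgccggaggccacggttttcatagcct
*Tnnc1* (chr14:31208062-31208311, plus strand): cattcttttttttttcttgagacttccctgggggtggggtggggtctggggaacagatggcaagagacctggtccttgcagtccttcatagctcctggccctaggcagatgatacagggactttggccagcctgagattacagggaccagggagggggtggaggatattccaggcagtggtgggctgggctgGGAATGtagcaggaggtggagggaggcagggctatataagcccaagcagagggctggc
*Myh7* (chr14:54994627-54994876, minus strand): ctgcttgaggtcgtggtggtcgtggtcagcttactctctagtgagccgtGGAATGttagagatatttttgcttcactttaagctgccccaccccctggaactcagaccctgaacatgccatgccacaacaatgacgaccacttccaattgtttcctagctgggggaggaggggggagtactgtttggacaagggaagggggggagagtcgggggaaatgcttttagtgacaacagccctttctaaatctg
*Myl3* (chr9:110763428-110763677, plus strand): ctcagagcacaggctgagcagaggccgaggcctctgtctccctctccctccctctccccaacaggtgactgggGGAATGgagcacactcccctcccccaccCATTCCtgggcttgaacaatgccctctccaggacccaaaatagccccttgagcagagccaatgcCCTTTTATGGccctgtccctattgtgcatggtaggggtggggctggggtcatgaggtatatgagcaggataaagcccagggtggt
In *Tnni1* the capitals are an E-box at positions -68 to -63 from the listed start, within the gene span. In *Tnnc1* they are an MCAT motif on the opposite strand at -58 to -53, and in *Myh7* one on the opposite strand at -201 to -196. *Myl3* has an MCAT motif on the opposite strand at -177 to -172, one on its own strand at -149 to -144, and a CArG box at -85 to -76. The MCAT motif, which TEAD factors bind, was thus in 3 of 9 members and in 12.6% of the 27025 genes of the table. The E-box, bound by MyoD and its relatives, was in *Tnni1* and *Tpm3* and in 12.7% of all genes. *Casq2* alone held a MEF2 site (3.03% of all genes), *Myl3* alone a CArG box (1.41%) and *Tnnt1* alone the exact string TATAAA (13.0%). Variants of the TATA box, such as the TATATAA near the end of the *Tnnc1* window, were not searched. Any of the 5 motifs occurred in 7 of 9 members and in 36.1% of all genes. These are matches of letters, and no binding was measured.

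To ask whether MYTHO knockdown altered the slow-fibre genes, each was compared between the groups with limma over all probe sets and without a pairing term. Of the 10 members, 7 were at least 2-fold higher at an unadjusted p under 0.05, against 0.261% of all probe sets, and none was past this threshold in the lower direction, against 1.25%. The 3 others were *Myl2*, whose unadjusted p was above 0.05, and *Casq2* and *Myh7b*, which were under 2-fold. The median log2 fold change was 1.46 over the members and -0.005 over all probe sets. After Benjamini-Hochberg adjustment, the limma p-values of the members ran from 0.28 to 0.551, and 0 of 10 passed 0.05, against 0.027% of all probe sets. At an unadjusted p under 0.05 the count was 9 of 10, against 12.4% of all probe sets. In no member were the 2 groups fully apart, against 6.46% of all probe sets without overlap.

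**Figure D1:**
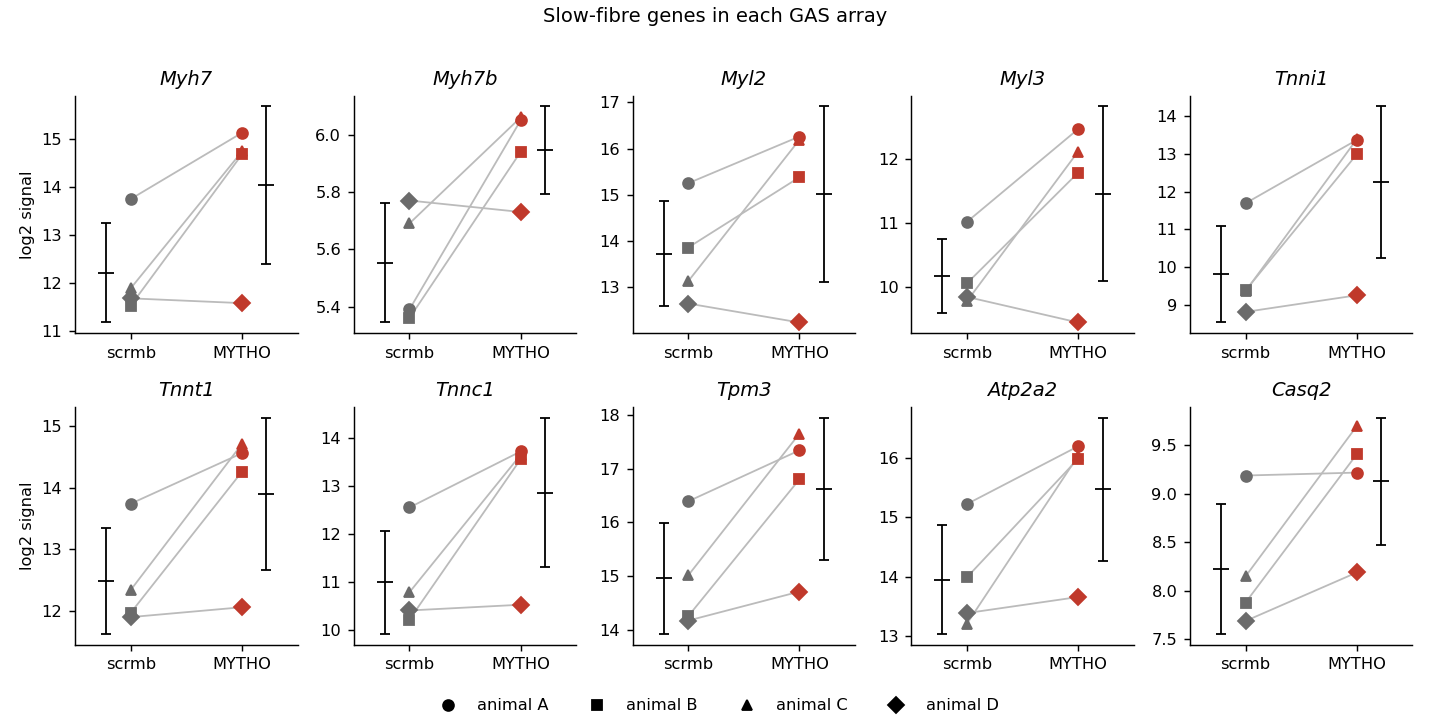
Log2 signal of each of the 10 slow-fibre genes (vertical axis, scaled per gene) in the scrmb and MYTHO leg of animals A to D, joined by a line for each animal, with the group mean and SD (n = 4) as black bars beside the points. The MYTHO array of animal D lies lowest of its group in all 10 genes, and the scrmb array of animal A lies highest of its group in all but *Myh7b*.

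Thick-filament genes were examined first. *Myh7* (chr14:54970684-54994626) codes for the slow myosin heavy chain, the motor that defines type I fibres. Log2 signals of 13.75, 11.53, 11.89 and 11.68 were measured with scrmb, and of 15.13, 14.68, 14.74 and 11.58 with MYTHO. The MYTHO arrays of animals A, B and C lay above every scrmb array, whereas that of animal D fell among the lowest values. The log2 fold change was 1.82 (SE 0.71, 95% interval 0.28 to 3.36), or 3.53-fold, with a limma adjusted p of 0.326.

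*Myl2* (chr5:122092724-122113473), the slow regulatory light chain that sits on the lever arm of this motor, had scrmb signals of 15.25, 13.86, 13.13 and 12.65 and MYTHO signals of 16.26, 15.38, 16.19 and 12.24. The lowest of its 8 values came from the MYTHO leg of animal D. Its log2 difference of 1.30 had an interval from -0.45 to 3.04, so the unpaired comparison did not separate it from 0 (limma adjusted p = 0.552). With animal as a block, the unadjusted p fell under 0.05 (limma adjusted p = 0.293), and *Myl2* became the only additional member past the 2-fold threshold.

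*Myl3* (chr9:110763678-110769802) codes for the slow essential light chain. It had signals of 11.02, 10.06, 9.78 and 9.85 in scrmb and of 12.47, 11.79, 12.12 and 9.45 in MYTHO. Again animal D gave the lowest of all 8 values in its MYTHO leg, while the other 3 MYTHO arrays were above all controls. The difference was 1.28 on the log2 scale (SE 0.55, 95% interval 0.08 to 2.48, limma adjusted p = 0.370).

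*Myh7b* (chr2:155611243-155634307), an ancient relative of *Myh7* found in slow and extraocular muscle, had its arrays in another order. Its scrmb signals were 5.39, 5.36, 5.69 and 5.77 and its MYTHO signals 6.05, 5.94, 6.06 and 5.73. Here the control of animal D, not of animal A, was the highest, and the whole range over the arrays was narrow. The log2 fold change was 0.39 (SE 0.18, 95% interval 0.0036 to 0.78, limma adjusted p = 0.397), and its unadjusted p went from 0.0482 to 0.0752 with animal as a block.

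The thin-filament members followed. *Tnni1* (chr1:135783033-135810989), the slow inhibitory subunit of troponin, gave 11.69, 9.38, 9.36 and 8.81 with scrmb and 13.37, 12.99, 13.39 and 9.25 with MYTHO. The MYTHO arrays of animals A, B and C were tightly grouped and at least 1.30 above the highest control. Its log2 fold change of 2.44 (SE 0.86, 95% interval 0.56 to 4.32), or 5.43-fold, was the largest of the 10, with a limma adjusted p of 0.280.

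*Tnnc1* (chr14:31208312-31211729) codes for the calcium-binding subunit of slow troponin. Signals were 12.55, 10.21, 10.78 and 10.40 in scrmb and 13.72, 13.56, 13.65 and 10.52 in MYTHO. Its MYTHO values in animals A, B and C spanned only 0.16, and that of animal D was within the range of the scrmb arrays. The difference was 1.88 on the log2 scale (SE 0.69, 95% interval 0.37 to 3.38), or 3.67-fold, with a limma adjusted p of 0.301.

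*Tnnt1* (chr7:4504569-4515975), the slow subunit that anchors troponin to tropomyosin, had scrmb signals of 13.74, 11.97, 12.34 and 11.90 and MYTHO signals of 14.56, 14.26, 14.71 and 12.06. The same 3 MYTHO arrays were above every control, by at least 0.52. Its log2 fold change was 1.41 (SE 0.56, 95% interval 0.20 to 2.62), or 2.66-fold (limma adjusted p = 0.332).

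*Tpm3* (chr3:90072651-90100902) codes for slow tropomyosin, the coil that covers the myosin-binding sites of actin at rest. Signals were 16.39, 14.25, 15.01 and 14.17 in scrmb and 17.34, 16.80, 17.65 and 14.71 in MYTHO. In every animal the MYTHO leg was the higher one. The log2 fold change was 1.67 (SE 0.62, 95% interval 0.33 to 3.01), or 3.18-fold (limma adjusted p = 0.302).

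Calcium handling was represented by a pump and a buffer. *Atp2a2* (chr5:122453513-122502225) codes for SERCA2, the pump that returns calcium to the sarcoplasmic reticulum of slow fibres. Its signals were 15.22, 13.99, 13.21 and 13.39 in scrmb and 16.19, 15.98, 16.03 and 13.66 in MYTHO. The MYTHO leg was higher in every animal, and the gap between the legs was smallest in animal D. The log2 fold change was 1.51 (SE 0.56, 95% interval 0.30 to 2.73), or 2.85-fold (limma adjusted p = 0.303).

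*Casq2* (chr3:102086415-102146514), the slow and cardiac calsequestrin that stores calcium inside the reticulum, had scrmb signals of 9.19, 7.88, 8.15 and 7.69 and MYTHO signals of 9.22, 9.41, 9.70 and 8.19. Unlike the other members, it showed almost no leg difference in animal A, at 0.03. Its log2 fold change of 0.90 (SE 0.37, 95% interval 0.10 to 1.70) stayed under 2-fold (limma adjusted p = 0.346).

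The leg pairs were then compared within each animal. The median MYTHO minus scrmb difference of the 10 members was 0.99 in animal A, 2.14 in animal B, 2.73 in animal C and 0.14 in animal D, while the median over all probe sets lay between -0.03 and 0.01. All 10 members were higher in the MYTHO leg of animals A, B and C, against 16.8% of all probe sets. In animal D 6 were higher and 4 lower, and 48.3% of all probe sets were higher there, so this share is near the background. The 4 lower ones were *Myl2* (-0.41), *Myl3* (-0.40), *Myh7* (-0.10) and *Myh7b* (-0.04), all from the thick filament. *Tnni1*, *Tnnt1*, *Tnnc1*, *Tpm3*, *Atp2a2* and *Casq2* were higher in all 4 animals, which makes 6 of 10 members against 8.94% of all probe sets.

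**Figure D2:**
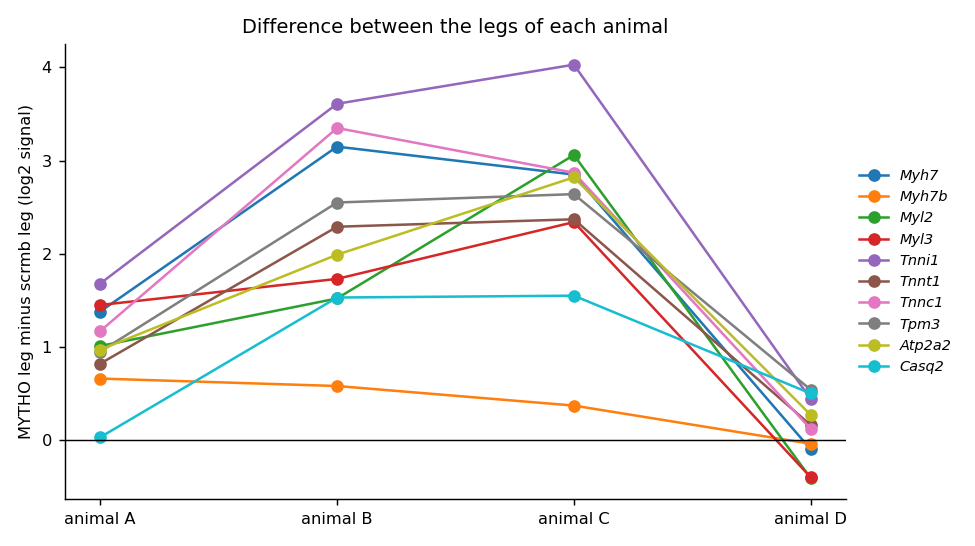
Difference in log2 signal between the MYTHO leg and the scrmb leg (vertical axis) of animals A, B, C and D for each member, 1 point per leg pair, with lines that only join the points of a gene. Differences reached 4.03 in animal C (*Tnni1*) and lay between -0.41 and 0.54 in animal D.

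Pairing the legs in the model (animal as a replicate block) brought 8 of 10 members past 2-fold and an unadjusted p under 0.05, against 0.27% of all probe sets. None passed an adjusted p of 0.05 in this limma fit (0.158 to 0.445), against 0.00901% of all probe sets.

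Of the legs, the scrmb leg of animal A and the MYTHO leg of animal D stood apart from the others of their group. The mean log2 signal of the 10 members was 12.42 in the scrmb leg of animal A, compared with 10.85, 10.93 and 10.63 in animals B, C and D. The MYTHO legs of the first 3 animals had means of 13.43, 13.08 and 13.42, and that of animal D 10.74. The MYTHO leg of animal D was thus near the control legs of animals B, C and D, and the control leg of animal A was above them. All 10 members had their MYTHO arrays of animals A, B and C above every scrmb array, a pattern shared by 4.60% of all probe sets and singled out after the values were seen.

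This variation was large beside that of other genes. The pooled within-group SD was 0.316 at the median of all probe sets, and for *Tnni1* the SD reached 1.28 in scrmb and 2.01 in MYTHO. Except for *Myh7b* and *Casq2*, the members varied more within groups than 99.76% to 99.95% of probe sets. *Casq2* lay at 97.9% and *Myh7b* at 10.4%.

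The members also varied together. Over the 8 arrays, Pearson's r between any 2 of the 9 members other than *Myh7b* ran from 0.897 to 0.997 over 36 pairs, with a median of 0.969. After the group means were removed, it still ran from 0.841 to 0.996. *Myh7b* was loosely tied to the others, at 0.426 to 0.629 over its 9 pairs and at 0.076 to 0.324 after removal of the group means. These values describe 8 arrays that share animals and normalization.

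Single libraries decided how many members passed. Leaving out the MYTHO array of animal D or the scrmb array of animal A brought 9 of 10 past the 2-fold threshold, against 0.468% and 0.491% of all probe sets. Without the scrmb array of animal B the count was 2, without that of C 3 and without that of D 2. Without the MYTHO array of animal A it was 1, without B 2 and without C 0. With both legs of an animal left out it was 7 without A, 0 without B, 0 without C and 9 without D. The share of all probe sets past it ran from 0.153% to 0.441% over the other fits without 1 array, and was 0.594%, 0.171%, 0.221% and 0.653% without animals A, B, C and D. Adjusted p-values stayed above 0.05 in each of these limma fits, with a lowest value of 0.0816 when animal D was left out. In that fit the log2 fold changes were 3.11 for *Tnni1*, 2.46 for *Tnnc1*, 2.46 for *Myh7*, 1.86 for *Myl2*, 1.84 for *Myl3* and 1.93 for *Atp2a2*. A fit with 2 eBayes options on at once, trend and robust, brought the count to 0, against 0.198% of all probe sets. Its limma p was 0.102 for *Myh7* and 0.0794 for *Tnni1*, at unchanged fold changes. The 2 options were not run apart.

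**Figure D3:**
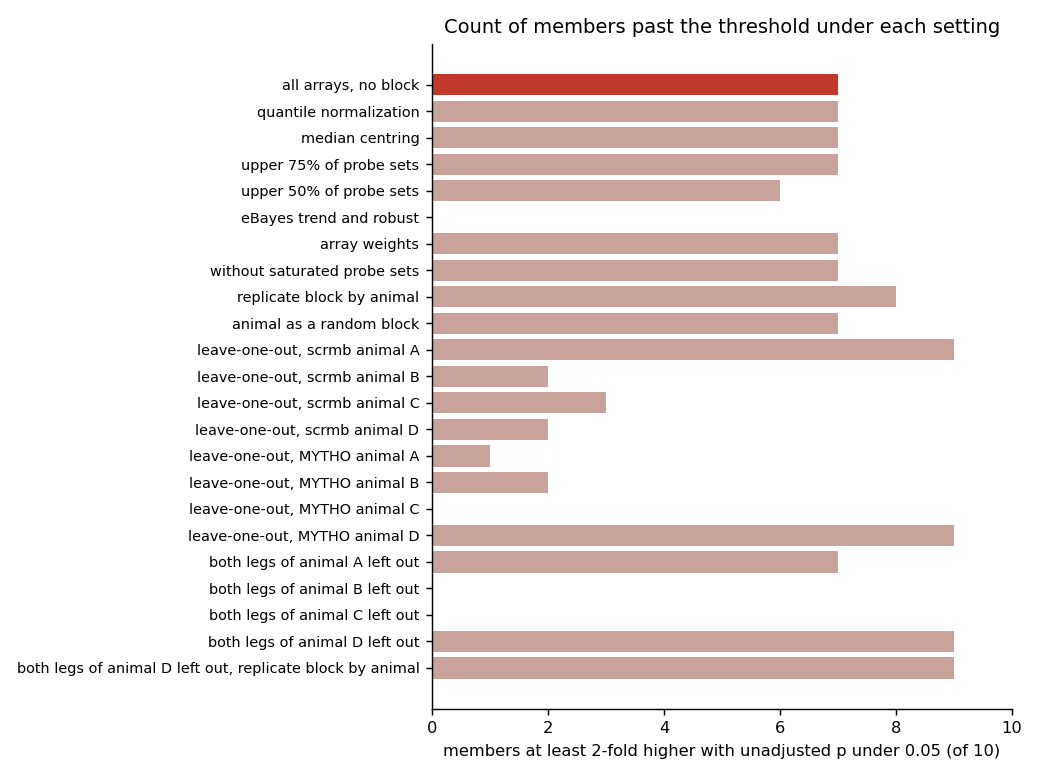
Number of the 10 slow-fibre members at least 2-fold higher in MYTHO with an unadjusted limma p under 0.05 (horizontal axis) under each setting (vertical axis), with the reported fit of all arrays without a block in dark red (7 members). Absent bars are counts of 0, and the counts run from 0 to 9.

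A second list held 10 other genes known to be high in slow or oxidative fibres. All 10 had a positive log2 fold change, against 10937 of the 22185 unsaturated probe sets. Values ran from 0.04 for *Pln* to 1.22 for *Myoz2*, with a median of 0.61. In animal A only 5 of the 10 were higher in the MYTHO leg, against 10729 of those 22185. Only 2 of 10, *Myoz2* and *Myl6b*, were higher in all 4 animals, against 8.94% of all probe sets. At an unadjusted p under 0.05 there were 4 of 10, against 12.4% of all probe sets, and 3 of 10 with animal as a block, against 12.6%, as *Fabp3* lost the call. *Myoz2*, a calcineurin-binding protein of the slow Z-disc, alone was past 2-fold with p under 0.05 in the fit of all arrays. Of all probe sets, 0.261% were past this threshold in the higher direction. The signals of *Myoz2* were 16.66, 15.63, 15.64 and 14.66 in scrmb and 17.36, 17.71, 17.11 and 15.29 in MYTHO (limma adjusted p = 0.356). It was higher in the MYTHO leg of all 4 animals, but its call was lost in 9 alternative fits, trend and robust eBayes among them. *Myl6b*, a slow-type essential light chain, was the 1 gene of the 10 whose groups did not overlap, a share near the 6.46% of all probe sets, at 4.93 to 5.40 in scrmb and 5.50 to 6.74 in MYTHO (log2 fold change 0.79, limma adjusted p = 0.261). The fatty acid carrier *Fabp3* differed by 0.77 and the oxygen store *Mb* by 0.55 (limma adjusted p = 0.388 and 0.326).

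The small membrane proteins that inhibit the calcium pump belong to the same list. *Pln*, phospholamban, had log2 signals of 5.19 to 6.78 in scrmb and 5.83 to 6.23 in MYTHO, and a difference of 0.04 (limma adjusted p = 0.975). *Sln*, sarcolipin, was at 12.08 in the MYTHO leg of animal A but at 7.31 to 7.40 in the other 3 MYTHO arrays, below the scrmb range of 7.73 to 8.48. Its log2 fold change of 0.40 therefore rested on 1 array (limma adjusted p = 0.895).

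Fast-fibre counterparts could be read only in part, as the array was near its ceiling for them. *Myh4*, *Myl1*, *Tpm1* and *Atp2a1*, the fast partners of *Myh7*, *Myl3*, *Tpm3* and *Atp2a2*, were saturated on all 8 arrays, and *Myh2* and *Actn3* on 1 array each. For these 6 of the 15 fast genes no fold change is given. *Myh2*, the fast IIA myosin, was at 19.49, 18.44, 18.65 and 18.64 in scrmb and at 19.21, 19.93, 19.76 and 18.41 in MYTHO. Its leg differences were -0.28 in animal A, at least 1.49 in B, 1.11 in C and -0.23 in D. The 9 fast genes not saturated on any array had a median log2 fold change of -0.015, within -0.11 to 0.70. *Tnni2*, the fast partner of *Tnni1*, was at 19.62 to 19.72 on all arrays, and *Tnnt3*, that of *Tnnt1*, at 19.79 to 19.87. *Mylpf* and *Casq1*, the partners of *Myl2* and *Casq2*, lay at 19.69 to 19.83 and 19.30 to 19.57. So close to 19.93, these probe sets had little room to show an increase.

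*Tnnc2*, the fast partner of *Tnnc1*, was further from the ceiling at 18.55 to 19.03 and had a log2 difference of 0.00 (SE 0.18, limma adjusted p = 1). *Myoz1*, the fast partner of *Myoz2*, had the lowest value of the list at -0.11 (SE 0.21, limma adjusted p = 0.883). *Myh1*, the fast IIX myosin, was the only 1 of the 9 readable fast genes with an unadjusted p under 0.05, a share near the 12.4% of all probe sets. Its signals were 17.02, 16.47, 16.06 and 16.61 in scrmb and 17.07, 17.68, 17.45 and 16.75 in MYTHO (log2 fold change 0.70, SE 0.25, limma adjusted p = 0.295). The difference between slow and fast genes was not tested.

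Genes of calcium release and of the triad were measured for comparison with *Atp2a2* and *Casq2*. None of 12 was past 2-fold with an unadjusted p under 0.05. This is near the share of all probe sets, 0.261% higher and 1.25% lower. The median log2 fold change of the 12 was 0.03. *Sypl2*, a mitsugumin of the triad membrane, had the largest value at 0.60 (limma adjusted p = 0.290), followed by *Orai1*, the pore of store-operated calcium entry, at 0.56 (limma adjusted p = 0.370). These 2 of 12 had an unadjusted p under 0.05, a share near the 12.4% of all probe sets. With animal as a block it was 3 of 12, against 12.6%, as *Jsrp1* was added. *Jph2*, which ties the reticulum to the surface membrane, had the smallest at -0.33 (limma adjusted p = 0.581). *Ryr1*, the release channel, differed by -0.29 (SE 0.22, limma adjusted p = 0.647).

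**Figure D4:**
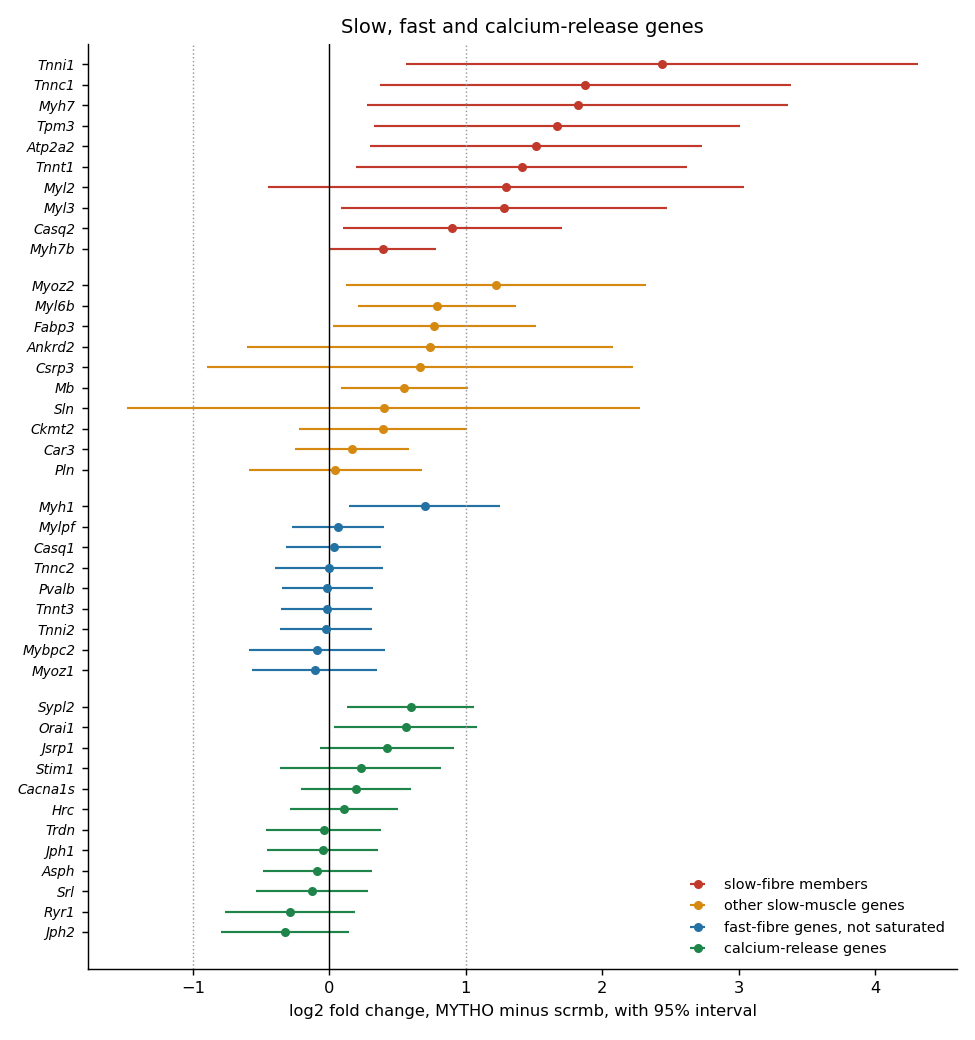
Log2 fold change, MYTHO minus scrmb, with its 95% interval (horizontal axis) for the 10 slow-fibre members, 10 other slow-muscle genes, the 9 fast-fibre genes that were not saturated and 12 calcium-release genes (n = 4 per group, dotted lines at 2-fold). Members lie between 0.39 and 2.44 with wide intervals, and the fast genes, several of them near the signal ceiling, lie between -0.11 and 0.70.

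As several members are also heart isoforms, 9 heart-type genes were read beside them. *Myh6*, *Tnni3*, *Mybpc3*, *Nppa* and *Nppb* stayed between 3.41 and 5.46 on all arrays, and their log2 fold changes ran from -0.33 to 0.32. *Myl7* lay at 5.12 to 6.10 and *Tnnt2* at 5.69 to 6.77, and the atrial and embryonic light chain *Myl4* at 10.94 to 11.80 with a log2 difference of 0.13. *Actc1*, cardiac actin, which is also made in developing and regenerating fibres, was the only one of the 9 past 2-fold with p under 0.05, against 0.261% of all probe sets higher. It was at 13.90, 12.50, 13.25 and 14.10 in scrmb and at 15.49, 14.45, 14.78 and 15.32 in MYTHO, without overlap, as were 6.46% of all probe sets. Its log2 fold change was 1.57 (SE 0.34, limma adjusted p = 0.112). Animal D was among its higher MYTHO values and had a leg difference of 1.22, beside 1.59, 1.95 and 1.53 in animals A, B and C, and its r with the mean of the members over the 8 arrays was 0.501. Over the fits without 1 array, the limma adjusted p of *Actc1* ran from 0.0493 to 0.31. It was under 0.05 only without the scrmb array of animal D, a fit in which 0.694% of all probe sets passed.

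To find the genes whose pattern was most like that of the members, each of 21339 other probe sets of 1 gene below saturation was correlated with the mean of the 10 members over the 8 arrays. In this ranking 44 exceeded r = 0.9 and 42 were under -0.9. The 10 most like were *Lmcd1* (0.974), *BC028528* (0.964), *Hspb7* (0.963), *Large* (0.958), *Ncaph* (0.957), *Myoz2* (0.951), *Slco1a6* (0.943), *Cep89* (0.942), *Myom3* (0.942) and *Adhfe1* (0.941). As these genes were ranked on the same 8 arrays, their pattern and fold changes follow in part from the ranking and are given as a description.

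*Hspb7*, a small heat shock protein of heart and muscle, had the largest fold change of these 10. Its signals were 16.63, 15.71, 14.89 and 14.23 in scrmb and 17.94, 18.02, 17.84 and 15.19 in MYTHO. The MYTHO leg was higher in all 4 animals, by 0.96 in animal D. Its log2 fold change was 1.88, or 3.69-fold (limma adjusted p = 0.259). *Myom3*, an M-band protein of the myomesin family, differed by 0.85 (limma adjusted p = 0.197), and *Lmcd1*, a LIM-domain protein, by 1.04 (limma adjusted p = 0.356). *BC028528*, *Large*, *Ncaph*, *Cep89* and *Adhfe1* had the pattern at a small scale, with log2 fold changes of 0.19 to 0.45. *Slco1a6* was at 0.59.

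**Figure D5:**
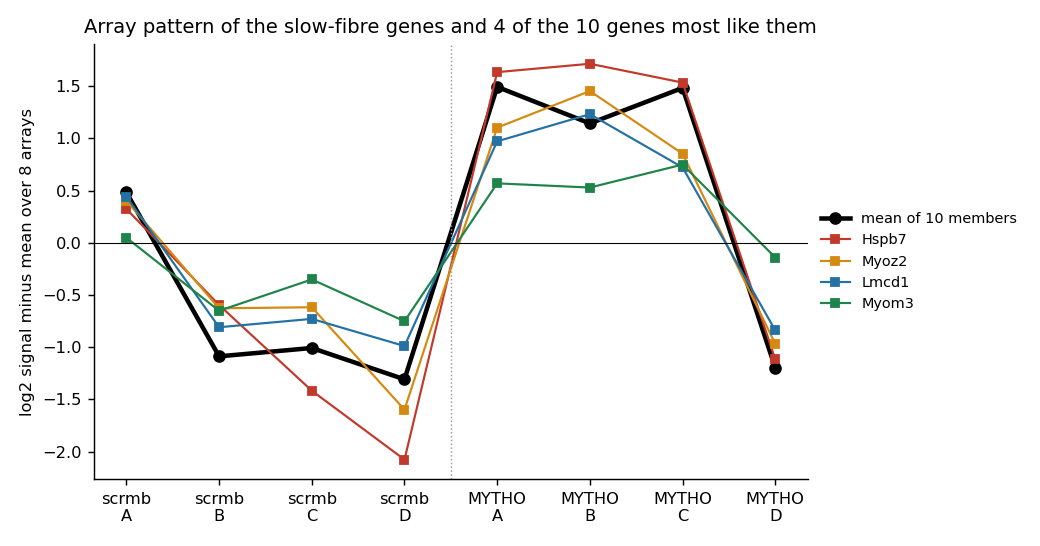
Log2 signal on each array minus the gene's mean over the 8 arrays (vertical axis) for the mean of the 10 members (black) and for *Hspb7*, *Myoz2*, *Lmcd1* and *Myom3*, with scrmb left and MYTHO right of the dotted line, each in the order of animals A, B, C and D. The 4 genes were picked for this likeness, so the shared shape follows from their choice, and in the MYTHO array of animal D *Myom3* (7.92) was above 3 of its 4 scrmb arrays.

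Markers of other cell types were read on the same arrays, as the log2 of their summed signals. For 3 adipocyte genes this was 7.36 to 12.0 in scrmb and 7.56 to 13.3 in MYTHO, highest in the MYTHO array of animal A. For 3 Schwann cell genes it was 8.48 to 11.1 and 8.43 to 9.64, and for 3 tendon genes 11.8 to 15.2 and 12.7 to 14.6. For 3 macrophage genes it was 7.88 to 8.36 in scrmb and 8.11 to 8.88 in MYTHO. For 3 blood genes, which *Hba-a1* dominates, it was 13.0 to 15.9 and 14.8 to 17.1, highest in the MYTHO array of animal D, which was the lowest MYTHO array for the slow members. Of these, *Hba-a1* differed by 0.85 and *Alas2* by -0.03, while *Ptprc*, a marker of white blood cells, differed by -0.59 and was lower in the MYTHO leg of all 4 animals (limma adjusted p = 0.620, 0.984 and 0.343). For 3 endothelial genes it was 13.3 to 13.6 in scrmb and 13.8 to 13.9 in MYTHO, and 2 of them, *Pecam1* and *Cdh5*, had groups that did not overlap, with log2 differences of 0.45 and 0.22 (limma adjusted p = 0.366 and 0.635), against 6.46% of all probe sets without overlap. The part of these cell types in the slow-gene differences was not tested. For the heart markers *Myh6*, *Myl7*, *Tnni3* and *Nppa* the sum stayed at 6.83 to 7.24 on all 8 arrays. Over all 9 heart-type genes, with *Actc1* and *Myl4*, it was 13.0 to 14.3 in scrmb and 14.6 to 15.6 in MYTHO.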

How the data were processed

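GAS expression was measured on Clariom S Mouse arrays from biotin-labelled total RNA (Trizol). The authors deposited log2 signals made with the Transcriptome Analysis Console 4.0.1. Per the file headers these are gene-level SST-RMA values (background correction, quantile normalization, median polish; annotation release 36, mm10), rounded to 2 decimals, with a ceiling of 19.93. Their deposited group averages, fold changes, p-values and false discovery rates were not used. Quantile normalization removes shifts shared by a whole array, and fold changes of bright genes are compressed near the ceiling.

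The log2 signals of 4 scrmb and 4 MYTHO arrays were compared with limma 3.58.1 in R 4.3.3 (lmFit and eBayes, MYTHO minus scrmb, two-sided, no block, as the study describes no pairing term for its arrays). Benjamini-Hochberg adjustment covered all 22206 probe sets, and the procedure was tested on simulated data. Counts used the study's threshold, 2-fold and unadjusted p under 0.05. Same-numbered columns are the legs of 1 animal. Their deviations from the group means correlated at 0.003, -0.001, 0.135 and 0.087 for animals A to D, and the block on animal was an alternative. The other alternatives were quantile normalization, median centring, the upper 75% or 50% of probe sets by mean signal, trend and robust eBayes, array weights, leaving out saturated probe sets, a random block, each array left out, a fold of 1.5 and an adjusted p of 0.1. Leaving out both legs of an animal was added after seeing the data.

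Named genes were the members, their fast counterparts, the 10 probe sets of 1 gene with the highest correlation to the members' mean, and of each list the genes past the threshold or, where none was, those with the largest and smallest change. *Myl6b*, *Fabp3*, *Mb*, *Pln*, *Sln*, *Myh1*, *Myh2*, *Orai1*, *Ryr1*, *Jsrp1*, the other heart genes and the marker genes were named after their values were seen. The members and lists were chosen with earlier results of these data known. With 4 arrays per group, their number limits the precision.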

Additional observations from a re-analysis of the deposited data

Results flagged for a closer look

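In groups of 4 arrays, a highest or lowest value was noted when its gap to the nearest other array took up more of the group's range than Dixon's 95% limit allows. Among 62 groups screened, 9 had such a value, and chance gives about 1 in 20. The screened groups include genes picked for their likeness to the members, *Hspb7* and *BC028528* among them, so the count cannot be read against that rate. The MYTHO array of animal D was the low one for 7 genes: *Myh7* (11.58), *Tnni1* (9.25), *Tnnt1* (12.06), *Tnnc1* (10.52), *Atp2a2* (13.66), *Hspb7* (15.19) and *BC028528* (5.19), with gaps that made up a share of 0.83 to 0.95 of the range. These genes are correlated, so the 7 values are not independent. *Myh7* was also set apart on the high side in the scrmb array of animal A (13.75). For *D230025D16Rik*, the MYTHO array of animal C (8.80) lay above the other 3.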

How the results depend on the processing

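The count of 7 slow-fibre members past 2-fold with an unadjusted p under 0.05 was 7 under quantile normalization, median centring, the upper 75% of probe sets, array weights, removal of saturated probe sets and a random block on animal. The deposited values were already quantile normalized, with array medians of 6.39 to 6.47, and removal took out 18 of 22206 probe sets. Normalization, centring and removal therefore changed the input little, and an unchanged count under them says little. The count was 6 with the upper 50% of probe sets, where *Myl3* missed an unadjusted p of 0.05 and *Myh7b*, never among the 7, was not tested. It was 8 with animal as a replicate block, the paired fit. It was 0 with trend and robust eBayes, 0 without both legs of animal B and 0 without those of animal C. Over the fits without 1 array each it ran from 0 to 9. Between 0.153% and 0.662% of all probe sets were past the same threshold over all fits. The cause of the changes in the count was not tested. The count past an adjusted p of 0.05 was 0 in every limma fit run. Past an adjusted p of 0.1 it was 0 in the fit of all arrays. It was 6 without both legs of animal D, 6 without its MYTHO array alone and 7 in the blocked fit without animal D. With a fold of 1.5 the first count was 8. Shares of all probe sets past an adjusted p of 0.1 or a fold of 1.5 are not given here, so these counts have no background. With the block on animal, *Myl2* passed the 2-fold threshold and no other member changed side. *Myh7b* and *Fabp3*, both under 2-fold, went above an unadjusted p of 0.05, and *Slco1a6* and *Jsrp1*, also under 2-fold, below it. *D230025D16Rik* was at -2.76 without animal D in the blocked fit (limma adjusted p = 0.0921). Of 219 fold changes of single members under alternatives, 154 kept direction and call, 55 lost the call, 10 gained it and 0 changed sign. Each member had 1 row in the table, so the choice among rows gave no alternative. The low number of arrays and the signal ceiling limit what can be seen of the fast isoforms.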
